A study of Mus musculus with 3 samples.

Results

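The 9 mature miRNAs described here come from 5 hairpins at 4 imprinted loci of the mouse. They are mmu-miR-335-5p and mmu-miR-335-3p of Mest, mmu-miR-483-3p and mmu-miR-483-5p of Igf2, mmu-miR-675-3p and mmu-miR-675-5p of H19, and mmu-miR-296-3p, mmu-miR-296-5p and mmu-miR-298-5p of Nespas, and the prefix for mouse (mmu) is left out below. They were chosen by name among the 1915 mature miRNAs listed for each library, and all 9 were listed. Small RNA of retinas from C57BL/6 mice, for which the labels give no treatment or altered allele, was sequenced at 3 ages after birth, day 1 (P1), day 7 (P7) and day 17 (P17), to follow miRNAs while the retina develops. Each age had 1 library, made from the pooled retinas of 5 eyes, so differences between ages could not be checked against replicates and were not tested. Total miRNA reads were 11426320 (P1), 12759995 (P7) and 11659722 (P17). Levels are given as RPM, the reads of a miRNA scaled to 1e+06 miRNA reads of the same library. All intervals are 95% intervals for counting error alone. Reads copied by PCR and not marked by molecular identifiers do not count molecules independently, and the intervals say nothing of variation between animals or library preparations.

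An imprinted gene is transcribed from the copy inherited from 1 parent only. Mest, which encodes a protein of the hydrolase fold, Igf2, which encodes a fetal growth factor, and Nespas, an antisense RNA of the Gnas locus, are read from the paternal copy. H19 is a long non-coding RNA read from the maternal copy and shares its enhancers with Igf2. A miRNA precursor folds into a hairpin whose 2 sides give the 5p and the 3p miRNA. The one that is loaded into an Argonaute protein recognises messenger RNAs mainly through bases 2 to 8, the seed. Imprinted genes are often most active before and around birth, when tissues grow, and in mouse the retina still makes new neurons at P1 and has all its cell types at P17.

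The mature sequences are shown because the arms of each hairpin are the units that were counted, with the seed in capitals. They are written 5′ to 3′ from RefSeq (GRCm38.p6), in which all 9 were matched by name.
miR-335-5p: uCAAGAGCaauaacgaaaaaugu
miR-335-3p: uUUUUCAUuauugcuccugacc
miR-483-5p: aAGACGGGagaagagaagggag
miR-483-3p: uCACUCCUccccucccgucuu
miR-675-5p: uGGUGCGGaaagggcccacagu
miR-675-3p: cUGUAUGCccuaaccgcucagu
miR-296-5p: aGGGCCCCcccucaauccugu
miR-296-3p: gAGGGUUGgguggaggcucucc
miR-298-5p: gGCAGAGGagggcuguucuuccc

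The 9 seeds were all different, and no other of the 1679 mature miRNA names in the RefSeq table carried any of them, so the miRNAs form no seed family. The nearest other mature sequence was at least 6 base changes, insertions or deletions away from every member. The miR-335 arms were poor in G and C, at 30.4% and 36.4%, whereas the other 7 miRNAs held between 54.5% and 68.2%. MiR-296-3p and miR-298-5p begin with G, miR-296-5p and miR-483-5p with A, miR-675-3p with C and the remaining members with U.

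On GRCm38, the assembly also called mm10, miR-335-5p lies at chr6:30741314-30741336 and miR-335-3p at chr6:30741354-30741375 on the plus strand. Their hairpin gene Mir335 (ENSMUSG00000065501) is intronic in each of the 7 Mest transcripts of GENCODE M21 that span it. MiR-483-3p lies at chr7:142654932-142654952 and miR-483-5p at chr7:142654968-142654989 on the minus strand, in an intron of each of the 7 spanning Igf2 transcripts, and a transcript of the overlapping gene model Gm49394 also spans them. MiR-675-3p at chr7:142577078-142577099 and miR-675-5p at chr7:142577112-142577133 are exonic in 3 of the 4 spanning H19 transcripts. Mir675 and Mir483 are thus on the same strand, 77776 bases apart. MiR-296-3p at chr2:174267058-174267079, miR-296-5p at chr2:174267093-174267113 and miR-298-5p at chr2:174267553-174267575 are on the minus strand, with 378 bases between their hairpins. The label Nespas was not borne out by the coordinates of this annotation. The Nespas gene (ENSMUSG00000086537) spans chr2:174281237-174295436 on the same strand, and Mir298 and Mir296 lie 13652 and 14112 bases beyond its downstream end, inside no other annotated transcript. Nespas is kept below as the name of the locus.

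Together the 9 miRNAs took 31330 reads in the P1 library, 14537 in the P7 library and 10859 in the P17 library, or 0.274%, 0.114% and 0.0931% of all miRNA reads. They ranged from abundant to not detected. At P1 miR-298-5p was in place 93 of the 1915 miRNAs by RPM and miR-675-3p in place 813. A mean level of 1 RPM or more was required for calls, which kept 648 miRNAs, among them 7 of the 9, and miR-675-5p and miR-675-3p did not pass. The RPM of each of the 9 was lower at P17 than at P1, but for several of them this direction depended on the scaling, as described below. In whole retina, fewer cells that make a miRNA and less of it per cell cannot be told apart.

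**Figure D1:**
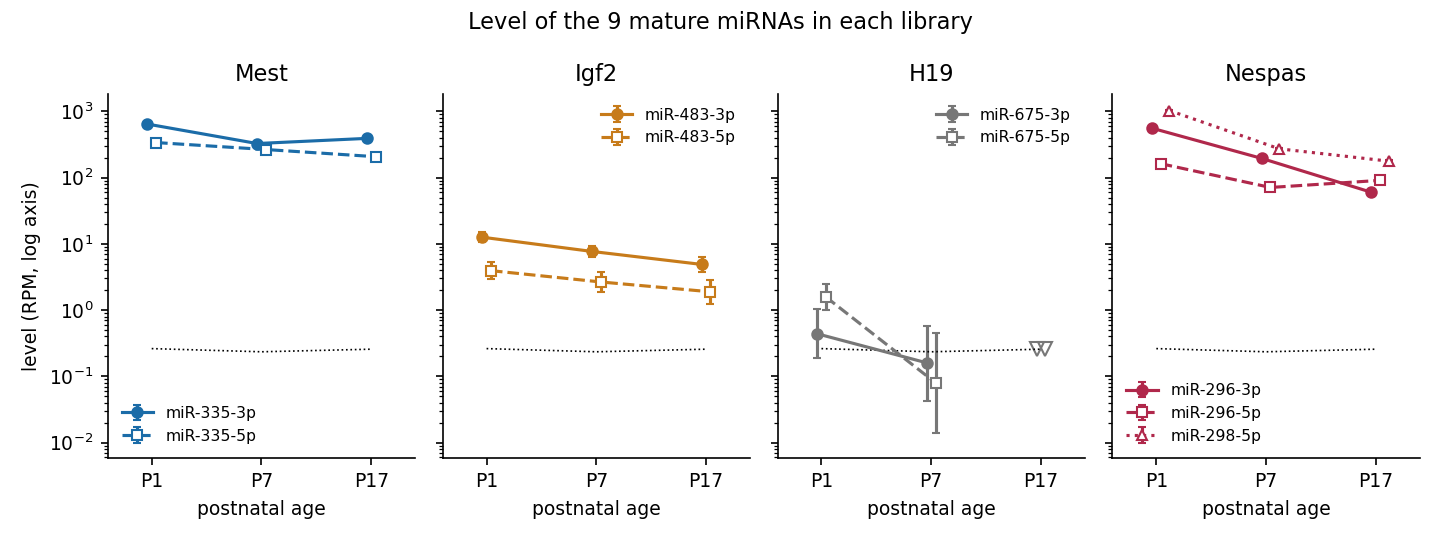
Level of each miRNA in RPM (log axis) at P1, P7 and P17, by locus, with 95% Wilson intervals, where each point is 1 library. The dotted line is the level of 3 reads, and open triangles on it stand for 0 reads; the Mest and Nespas miRNAs lie at 59.95 RPM or more in each library, the Igf2 miRNAs between 1.89 and 12.6 RPM, and the H19 miRNAs at most at 1.58 RPM.

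The Mest miRNAs were abundant at each age. MiR-335-3p had 7337, 4165 and 4551 reads in the order of the ages, or 642 RPM (interval 628 to 657), 326 RPM (317 to 336) and 390.3 RPM (379 to 402). In RPM it was therefore highest at P1 and lowest at P7, but this order depended on the scaling. From P1 to P7 its log2 change was 0.01 with TMM factors and -0.01 with median-of-ratios size factors. With a total that leaves out the most abundant miRNAs (reduced total) it was -0.35. No interval was computed for these values, so 0.01 and -0.01 were not shown to exceed counting error. From P1 to P17 the changes were 0.30, 0.33 and -0.34 in the same order. MiR-335-5p had 3857, 3381 and 2409 reads, or 338 RPM (327 to 348), 265 RPM (256 to 274) and 207 RPM (199 to 215), and was lower in RPM at each later age. On the log2(RPM + 1) scale the change from P1 to P17 was -0.72 for miR-335-3p and -0.71 for miR-335-5p, nearly the same, although they took different courses. From P1 to P7 the changes were -0.97 and -0.35, and from P7 to P17 they were 0.26 and -0.36. The first step of miR-335-5p turned with the scaling, to 0.61 with median-of-ratios size factors, 0.64 with TMM factors and 0.27 with a total that leaves out the most abundant miRNAs. In RPM, the difference of miR-335-3p between P7 and P17 was larger than its counting error. Its log2 ratio without a pseudocount was 0.26 (exact interval 0.20 to 0.32). The sign was the same under each of the 3 other scalings, with 0.01 as the smallest value (reduced total). The interval was computed for RPM only, so a change of 0.01 was not shown to exceed counting error.

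The Igf2 miRNAs were rare at every age. MiR-483-3p had 144, 98 and 57 reads, or 12.6 RPM (10.7 to 14.8), 7.68 RPM (6.30 to 9.36) and 4.89 RPM (3.77 to 6.33). Its log2(RPM + 1) values differed by -0.65 from P1 to P7, -0.56 from P7 to P17 and -1.21 from P1 to P17. MiR-483-5p had 45, 34 and 22 reads, or 3.94, 2.66 and 1.89 RPM. Its log2 ratio of P17 to P1 was -1.06 (exact interval -1.87 to -0.30). For neither step alone was a difference of miR-483-5p detectable at this depth, since the interval of the ratio was -1.25 to 0.11 from P1 to P7 and -1.34 to 0.32 from P7 to P17.

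The H19 miRNAs had most of their few reads at P1. MiR-675-5p had 18, 1 and 0 reads, and miR-675-3p had 5, 2 and 0. The floor of detection was set at 3 reads per library, which is 0.257 RPM at P17. By this floor, miR-675-5p was in RPM at least 6.12-fold lower at P17 than its 1.58 RPM at P1. Counting error allows a smaller fold, since the exact interval of the ratio of 18 reads to 0 reaches down to 4.49-fold. These folds were computed for RPM only. With a pseudocount of 1, the log2 change of miR-675-5p was -1.37 with RPM, -0.99 with median-of-ratios or TMM factors and -2.36 with the reduced total. In RPM its level at P1 was 20.1 times that at P7, but the exact interval of this ratio of 18 reads to 1 runs from 3.17 to 837. For miR-675-3p no difference between ages was detectable, since its 5 reads at P1 and 0 at P17 leave an interval that includes no change. Between P7 and P17 both arms were at or under the floor, so no fold is given.

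The Nespas miRNAs held the most abundant member at P1, and the 2 members with the largest log2(RPM + 1) differences from P1 to P17. MiR-298-5p had 11716, 3467 and 2062 reads, or 1025 RPM (1007 to 1044), 272 RPM (263 to 281) and 177 RPM (169 to 185). MiR-296-3p had 6356, 2484 and 699 reads, or 556 RPM (543 to 570.1), 195 RPM (187 to 202) and 59.95 RPM (55.7 to 64.6). Both were thus lower at each later age. From P1 to P17 their log2(RPM + 1) values differed by -3.19 for miR-296-3p and -2.53 for miR-298-5p. Without a pseudocount, miR-296-3p was 9.28-fold lower at P17 (exact interval 8.58 to 10.05) and miR-298-5p 5.80-fold lower (5.53 to 6.08). Of the difference of miR-298-5p, 75.6% on the log2(RPM + 1) scale was already present at P7, and 59.9 to 64.1% under the other 3 scalings. For miR-296-3p it was 47.3%, and 24.0 to 31.5% under the others.

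The other arm of the miR-296 hairpin took another course. MiR-296-5p had 1852, 905 and 1059 reads, or 162 RPM (155 to 170), 70.9 RPM (66.5 to 75.7) and 90.8 RPM (85.5 to 96.5). It was lowest at P7. Its log2(RPM + 1) values differed by -1.18 from P1 to P7, 0.35 from P7 to P17 and -0.83 from P1 to P17. The second step was above 0 under the 3 other scalings too, with 0.11 as the smallest value (reduced total). No interval was computed under those scalings, so 0.11 was not shown to exceed counting error.

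A hairpin gives both arms from 1 precursor. Their reads were counted in the same library, so the ratio of the arms within a library does not depend on the scaling. For miR-296 the 5p arm took 22.6% of the reads of both arms at P1 (exact interval 21.7 to 23.5%), 26.7% at P7 (25.2 to 28.2%) and 60.2% at P17 (57.9 to 62.5%). MiR-296-3p thus had 3.43 times the reads of miR-296-5p at P1 and 2.74 times at P7, and at P17 miR-296-5p had 1.52 times those of miR-296-3p. With 0.5 reads added to each arm, the log2 ratio of the arms (5p over 3p) was 2.38 higher at P17 than at P1, of which 2.06 came after P7. Among the 191 hairpins with both arms past the filter this was in place 6 from the largest increase, the median being 0.17. The more abundant arm at P1 and at P17 differed for 15 of the 191, or 7.85%, and miR-296 was 1 of the 7 among them that went from 3p to 5p.

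The arms of miR-298 and miR-335 took other courses, and for miR-483 no change of the arm shares was detectable. MiR-298-3p, which is not among the 9, had 113, 51 and 53 reads, so that the 5p arm of miR-298 took 99.0%, 98.6% and 97.5%. The log2 ratio of its arms (5p over 3p) differed by -1.42 from P1 to P17, opposite in sign to that of miR-296. The 5p arm of miR-335 took 34.5% at P1 (33.6 to 35.3%), 44.8% at P7 (43.7 to 45.9%) and 34.6% at P17 (33.5 to 35.7%), so its share was higher at P7 than at both other ages, between which the intervals overlapped. For miR-483 the shares were 23.8%, 25.8% and 27.8%, with intervals that overlapped at all 3 ages. The 23 reads of miR-675 at P1 put 78.3% on the 5p arm (56.3 to 92.5%), and the later libraries held too few reads for a share.

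**Figure D2:**
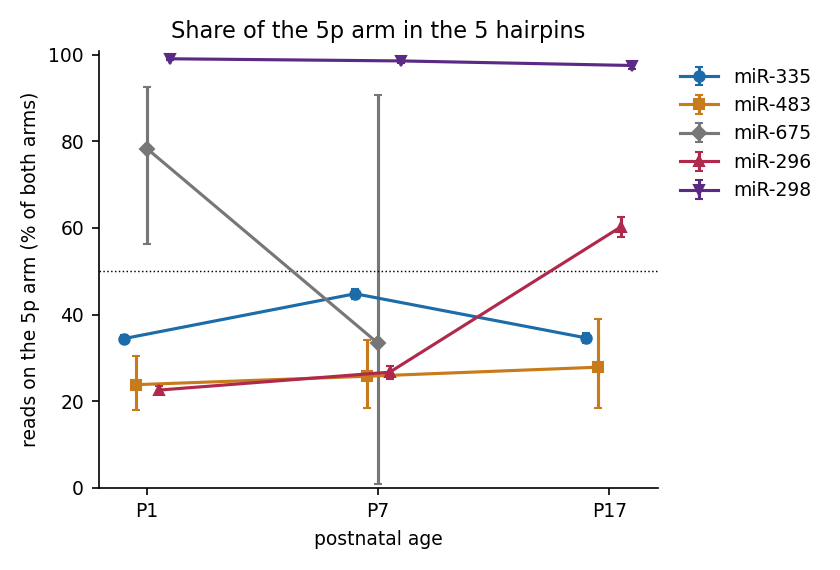
Share of reads on the 5p arm, in percent of the reads of both arms, for the 5 hairpins at P1, P7 and P17, with exact 95% binomial intervals, where each point is 1 library and the dotted line marks 50%. The share for miR-296 lies at 22.6% and 26.7% at P1 and P7 and at 60.2% at P17. MiR-298 (with miR-298-3p, which is not a member) stays at 97.5% or above, and miR-675 has 3 reads at P7 and no reads at P17.

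The order of the members within a library also changed. At P1 the order by RPM was miR-298-5p, miR-335-3p, miR-296-3p, miR-335-5p, miR-296-5p, miR-483-3p, miR-483-5p, miR-675-5p and miR-675-3p, and each neighbouring pair differed beyond counting error. At P7 miR-335-3p was highest, and miR-298-5p and miR-335-5p, in the next places, did not differ beyond counting error (ratio 1.03, exact interval 0.978 to 1.08). At P17 both miR-335 arms were above miR-298-5p. Reads per miRNA carry the ligation preferences of the library kit, so a ratio of different miRNAs within a library is not a ratio of molecules. Its change between libraries does not depend on the scaling. The ratio of miR-298-5p to miR-335-3p was 1.60 at P1 (1.55 to 1.64), 0.832 at P7 (0.796 to 0.871) and 0.453 at P17 (0.430 to 0.477). That of miR-296-3p to miR-335-3p was 0.866, 0.596 and 0.154. In contrast, miR-296-5p to miR-335-5p was 0.480, 0.268 and 0.440, with the P1 and P17 values much closer to each other than to that of P7.

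By locus, the Mest miRNAs took 35.7% of the reads of the 9 at P1 (exact interval 35.2 to 36.3%), 51.9% at P7 (51.1 to 52.7%) and 64.1% at P17 (63.2 to 65.0%). The Nespas miRNAs took 63.6%, 47.2% and 35.2%. The Igf2 miRNAs took 0.603%, 0.908% and 0.728%, and the H19 miRNAs 0.0734% at P1 and 0.0206% at P7. At P17 the H19 miRNAs had 0 of 10859 reads, which allows a share of up to 0.0276% by the floor of 3 reads, or 0.0340% by the exact interval.

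**Figure D3:**
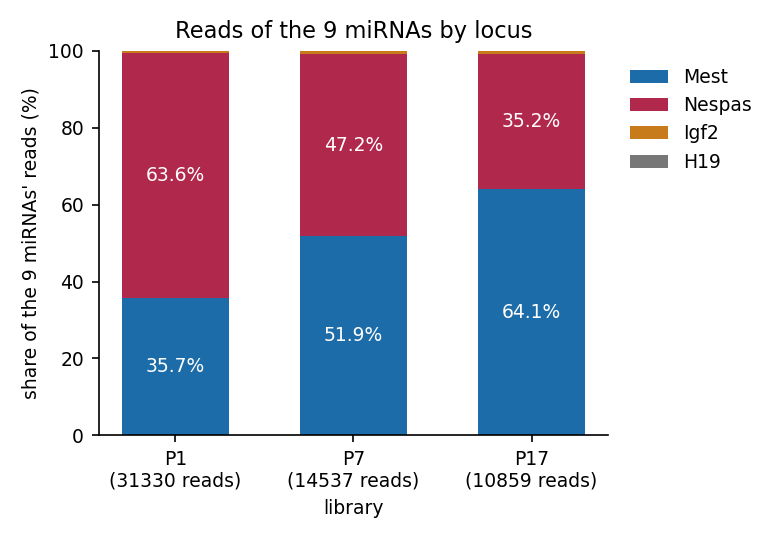
Reads of the 9 miRNAs by locus, in percent of their summed reads in each library (1 bar per library, reads below each bar). The Mest share is 35.7% at P1 and 64.1% at P17 and the Nespas share 63.6% and 35.2%, while Igf2 and H19 are thin bands under 1%.

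Calls between ages were read against all miRNAs past the filter, where a call is a change over 2-fold on the log2(RPM + 1) scale. From P1 to P17, 3 of the 7 members past the filter were called lower, namely miR-296-3p, miR-298-5p and miR-483-3p, and none was called higher. Of the 648 miRNAs, 303 were called lower, or 46.8%, and 10.5% higher, so the members' count was near the background. From P1 to P7, miR-298-5p, miR-296-3p and miR-296-5p were called lower, 3 of 7 against 44.8% of the 648, and none higher against 3.09%. From P7 to P17 miR-296-3p alone was called lower, against 11.6%, and none higher, against 14%. The median change of all 9 members from P1 to P17 was -0.83, and that of the 648 miRNAs -0.91. MiR-296-3p was in place 32 from the largest fall among the 648 and miR-298-5p in place 85, whereas miR-335-5p, miR-335-3p, miR-296-5p and miR-483-5p lay in places 336 to 362, near the middle.

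**Figure D4:**
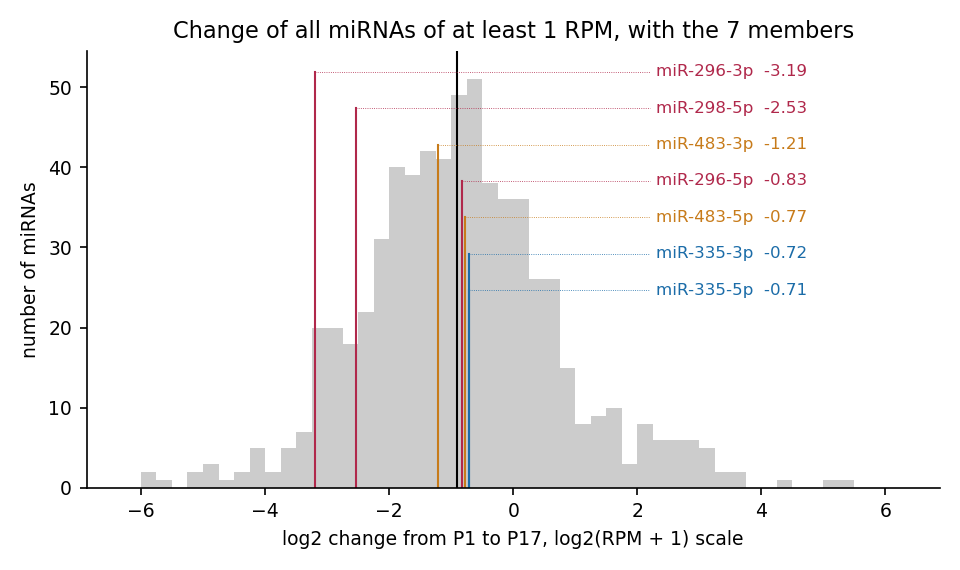
Number of miRNAs by log2 change from P1 to P17 on the log2(RPM + 1) scale, for the 648 miRNAs past the filter (grey bars) and the 7 members among them (coloured lines with their values). The black line is the median of the 648, -0.91; miR-296-3p (-3.19) and miR-298-5p (-2.53) lie far to its left and the miR-335 arms (-0.72 and -0.71) just to its right.

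The scaling of the libraries decided the sign for several members. Size factors by the median of ratios, under which the typical miRNA is close to no change, moved the median change of the 648 miRNAs from P1 to P17 to 0.01. They gave 155 miRNAs lower and 165 higher, against 303 and 68 with RPM. From P1 to P7 they gave 71 and 62, against 290 and 20. Under this scaling the changes from P1 to P17 were 0.34 for miR-335-5p, 0.33 for miR-335-3p and 0.21 for miR-296-5p, which were negative with RPM. MiR-483-5p was at -0.01. MiR-483-3p was at -0.28, and its call was lost under each other scaling (-0.31 with TMM factors, -0.95 with the reduced total) and with a pseudocount of 5 RPM (-0.83). MiR-296-3p at -2.15 and miR-298-5p at -1.49 were still over 2-fold lower, and with TMM factors they were at -2.18 and -1.51. Thus the lower level of miR-296-3p and miR-298-5p at P17 held under every scaling tried, and a lower level of the miR-335 arms and miR-296-5p did not. From P1 to P7 no member was called lower under median-of-ratios or TMM scaling.

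**Figure D5:**
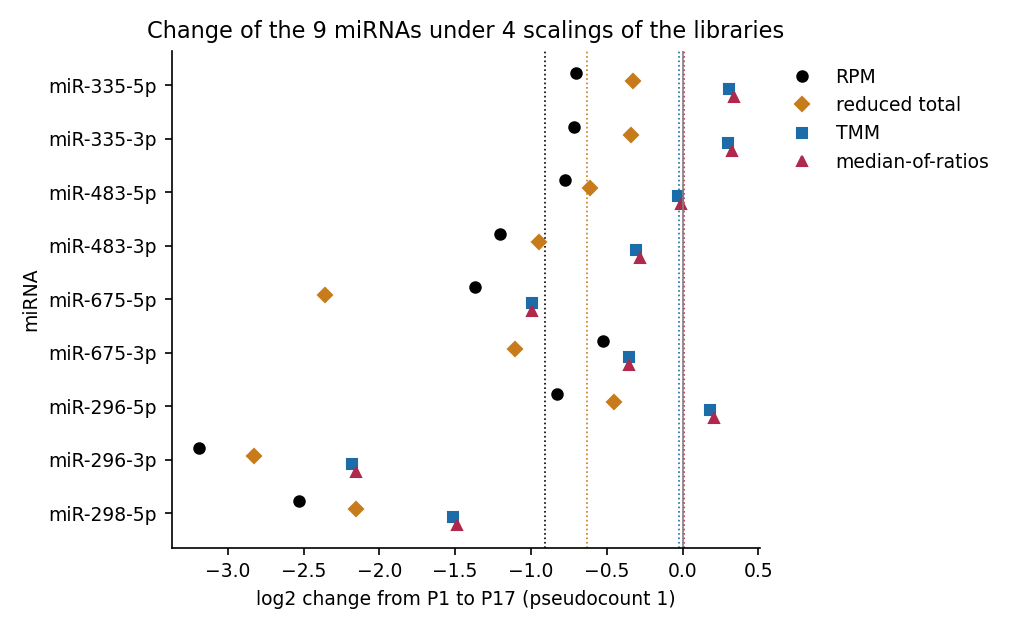
Change of each of the 9 miRNAs from P1 to P17, in log2 units with a pseudocount of 1, under RPM, a total that leaves out the most abundant miRNAs (reduced total), TMM factors and median-of-ratios size factors. Dotted lines are the medians of the 648 miRNAs in the colour of each scaling; the miR-335 arms and miR-296-5p lie on either side of 0 depending on the scaling, and miR-296-3p and miR-298-5p lie at -1.49 or below in each.

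The miRNAs with the most similar course over the 3 ages were taken by Euclidean distance between centred log2(RPM + 1) values, among those averaging 10 RPM or more. With 3 libraries such likeness is only descriptive. For miR-335-3p they were miR-1198-5p (distance 0.07 log2 units), miR-323-3p (0.07) and miR-30a-3p (0.08), each of which was lowest at P7. For miR-483-3p they were miR-541-5p (0.03), miR-362-5p (0.05) and miR-342-3p (0.07). For miR-298-5p they were miR-669c-5p (0.05), miR-669o-5p (0.08) and miR-34b-3p (0.11), whose changes from P1 to P17 were -2.59, -2.54 and -2.51. MiR-669c-5p and miR-669o-5p carry miR-669 names, as do miRNAs of the imprinted Sfmbt2 cluster, which was not analysed here. MiR-675-5p was too rare for such a match.

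The hairpins between Dlk1 and Dio3, a larger imprinted cluster on chromosome 12, gave 113 listed miRNAs, of which 85 passed the filter. MiR-323-3p and miR-541-5p are among them. The list is not complete, since miR-485-5p, miR-487b-3p and miR-376c-3p are missing from it although their other arms are in it. From P1 to P17, 22 of the 85 were called lower and 4 higher, with a median change of -0.54, beside 46.8% lower and 10.5% higher among all 648. With median-of-ratios scaling 4 of the 85 were called lower and 20 higher, with a median of 0.50, beside 23.9% lower and 25.5% higher among all 648. From P7 to P17, 12 of the 85 were called higher and 2 lower, beside 14% and 11.6% of the 648. Whether the lists differ was not tested.

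Markers of retinal and other cell types, listed by their known tissue, moved with age in the same libraries. The 6 miRNAs of retinal neurons and photoreceptors (such as miR-124-3p, miR-9-5p and miR-182-5p) summed to 229917, 437939 and 392112 RPM in the order of the ages. As a sum, the markers of the labelled tissue were thus abundant throughout. Within this list miR-124-3p, miR-183-5p, miR-96-5p and miR-182-5p were each over 2-fold higher at P17 than at P1 in RPM. In contrast, miR-9-5p went from 144259 to 74010.5 RPM and miR-9-3p from 6260 to 4184 RPM. With median-of-ratios scaling these 2 arms changed by 0.08 and 0.46. The pair for endothelium (miR-126a-3p and miR-126a-5p) summed to 1261, 3643 and 8530.4 RPM, and that for mural cells and smooth muscle (miR-143-3p and miR-145a-5p) to 195, 376 and 1492 RPM, so both were higher at each later age, while the RPM of each member was lower at P17 than at P1. The 3 surface epithelium markers (miR-205-5p, miR-200b-3p and miR-203-3p) summed to 269, 152 and 79.2 RPM and were each over 2-fold lower at P17 in RPM, but none of them with median-of-ratios scaling (-0.52, -0.99 and -0.69). Of the pigment and ciliary epithelium pair, miR-204-5p was at 14662, 6967 and 9019 RPM and miR-211-5p at 549.7, 259 and 5315 RPM. The 7 blood and immune markers summed to between 133 and 193 RPM, although miR-150-5p went from 0.53 to 17.8 RPM and miR-451a from 45.5 to 27.9 RPM, and the 3 skeletal muscle markers to between 90.0 and 240.1 RPM. The part of these cell types in the differences of the 9 miRNAs was not tested.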

How the data were processed

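Small RNA libraries of pooled mouse retina were sequenced at P1, P7 and P17, with ages as labelled. The authors trimmed adaptors, discarded reads of low quality and mapped the others to mm10. Their methods name HISAT2, whereas the submitters' processing notes name FastQC and BWA. The miRNA annotation and counting rule are not given in the sources used here. Some names had the same RPM at every age, such as let-7a-1-3p and let-7c-2-3p (1270.84, 791.92 and 478.31 RPM). The same reads may thus have been counted under more than 1 name, in the totals and among the 648 miRNAs. The authors deposited raw read counts per mature miRNA and RPM values, which equal the count divided by the summed miRNA counts of the library to within 0.0192 RPM. RPM is therefore a share, and a rise of abundant miRNAs lowers that of all others.

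Here log2(RPM + 1) was computed from the deposited RPM, with a filter of a mean of 1 RPM and a call at over 2-fold. The pseudocount understates changes of rare miRNAs. No p-value was computed, since each age has 1 library. Levels have Wilson intervals and ratios exact binomial ones. The members and lists were chosen with earlier results of these data known. By the rule for named genes, all members were named, with the 3 miRNAs nearest in course to the most abundant member of each locus of at least 1 RPM, other miRNAs with a member's seed (none was found) and miR-298-3p. Of the 1915 names, 1623 were matched to RefSeq. The miRNAs of the Sfmbt2 cluster, which the libraries list, were not matched to hairpins there by name, so that cluster was not analysed here. Median-of-ratios factors used 644 miRNAs with reads in every library, and the reduced total left out 13 miRNAs, the 10 most abundant of any library. Calls with RPM, ratio intervals and median-of-ratios factors were tried on simulated counts, in which miRNAs picked at random were changed at P17. The shift of abundant miRNAs in the real libraries was not copied. Arm ratios, TMM factors and nearest courses were not tried in this way. TMM factors came from edgeR 4.0.16 in R 4.3.3. All else was computed in Python 3.11.15 with scipy 1.17.1 for intervals, pandas 2.3.3 and numpy 2.4.6, and plots were drawn in matplotlib 3.10.9.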

Additional observations from a re-analysis of the deposited data

How the results depend on the processing

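The number of members called lower from P1 to P7 was 3 with RPM, 0 under median-of-ratios scaling, 0 with TMM factors, 1 with the reduced total, 5 at a fold of 1.5 and 0 at a fold of 4. From P7 to P17 it was 1, against 2 at a fold of 1.5 and 0 at a fold of 4. From P1 to P17 it was 3, against 7 at a fold of 1.5. These counts have a background in the 648 miRNAs past the filter. At a fold of 1.5, 66.4% of the 648 were lower at P7 than at P1, and 59.9% were lower at P17 than at P1. Between P7 and P17 the share at this fold was 27.3%. At a fold of 4 the share was 8.64% for the first step and 2.16% for the second. The other 19 of 27 alternative counts of members called lower were within 1.5 times, although from P1 to P17 the call of miR-483-3p was lost under each other scaling and with a pseudocount of 5 RPM. The 27 alternative counts of members called higher were all 0, as with RPM. The share of all miRNAs called higher ran from 0.926% (fold of 4, P1 to P7) to 25.5% (median-of-ratios scaling, P1 to P17). With at most 9 members, counts of 0 say little beside such shares. Signs of single members changed in 9 of 45 values from P1 to P7 (both miR-335 and both miR-483 arms), in 0 of 45 from P7 to P17 and in 6 of 45 from P1 to P17 (both miR-335 arms and miR-296-5p), only under other scalings and for changes of less than 2-fold. The unchanged signs from P7 to P17 include 0.01 for miR-335-3p and 0.11 for miR-296-5p with the reduced total, for which no interval was computed. Over all miRNAs past the filter, TMM factors gave 157 lower and 163 higher from P1 to P17 and 68 and 63 from P1 to P7, close to median-of-ratios scaling. The reduced total gave 265 and 95, and 149 and 49. From P7 to P17 the reduced total gave 149 lower and 82 higher, against 75 and 91 with RPM. Without the 0.5 added reads, the log2 arm ratio (5p over 3p) of miR-675 went from -0.74 to -1 at P7 and from 1.75 to 1.85 at P1. At P7 it rests on 1 and 2 reads, with an exact interval of -6.88 to 3.26. The log2 arm ratio of miR-296 at P17 was 0.60 either way. The intervals come from the reads alone, so a ratio without added reads lies within its interval by construction. That this held in all 14 cases with reads on both arms is therefore no check. Depth limits miR-483-5p, with 22 reads at P17, and both miR-675 arms. No paired analysis was possible because no age had a second library.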

Other observations

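Among the members, base composition went with the locus, as the miR-335 arms were AU-rich and the other members richer in G and C. From P1 to P17 the miR-335 arms changed by -0.72 and -0.71, and miR-296-3p and miR-298-5p by -3.19 and -2.53. MiR-483-3p and miR-483-5p, also richer in G and C, changed by -1.21 and -0.77. Over the 540 of 648 miRNAs past the filter with a RefSeq sequence (83.3%), the GC content of the mature sequence and the log2 change from P1 to P17 had a Spearman rho of -0.05 and a Pearson r of -0.04. These values are across miRNAs of the same libraries, which are not independent replicates. The 94 miRNAs with at least 60% GC had a median change of -0.84, and the 98 with less than 40% had -0.70. MiR-296-5p, with 66.7% GC, changed by -0.83 and miR-296-3p, with 68.2%, by -3.19. The part of base composition in the changes of the members was not tested.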
